A study of Sus scrofa with 40 samples.

Results

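The genes described here encode the machinery that brings secreted and membrane proteins into the endoplasmic reticulum (ER), attaches N-linked glycans to them, folds them and carries them to the Golgi and back. They were chosen by gene symbol. The choice took every probe set with a single platform symbol that names a signal recognition particle (SRP) subunit or its receptor, a SEC translocation or coat gene, a signal sequence receptor subunit (SSR), a signal peptidase subunit, an oligosaccharyltransferase subunit, an ALG enzyme, a protein disulfide isomerase of the PDIA series, calreticulin, calnexin, HSP90B1, a coatomer subunit, a TMED protein or a KDEL receptor. This gave 63 genes on 107 probe sets, out of 6765 named genes. Of the 63 genes, 36 had 1 probe set and 27 had several, and each gene was read from its probe set with the highest mean log2 intensity over all 40 arrays.

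The animals were prepubertal Yorkshire gilts, 6 months old, of a line with low or a line with high residual feed intake (RFI), the gap between the feed an animal eats and the feed its growth and upkeep predict; low RFI pigs are the feed-efficient ones. Per line, 5 pigs had free access to feed and another 5 received 80% of maintenance feed for 8 days. Liver and the middle layer of backfat at the 10th rib were profiled on 1-colour biotin-labelled Affymetrix porcine arrays, which gives 8 groups of 5 arrays. The pigs had been genotyped at the melanocortin receptor gene MC4R and, by the labels of all but 1 array, heterozygous animals were used in every group; the label of the remaining array speaks only of specific genotypes. The labels do not say which liver and backfat arrays came from the same pig. Whole tissue was taken, so fewer cells of a type and less RNA per cell cannot be told apart in any value below. The design asks how gene expression responds to short caloric restriction, whether the lines differ, and whether the lines respond differently.

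A nascent protein with a signal sequence is recognised by SRP, which docks on the SRP receptor at the ER membrane and hands the ribosome to the SEC61 channel. The signal peptidase complex then removes the signal sequence, oligosaccharyltransferase moves a glycan prebuilt on a lipid carrier by the ALG enzymes onto the chain, and chaperones such as calreticulin, calnexin, HSP90B1 and the PDIA enzymes assist its folding. Cargo leaves the ER in COPII-coated vesicles and escaped ER residents return in COPI-coated ones, helped by TMED cargo receptors and KDEL receptors. Hepatocytes use this route to release plasma proteins in bulk, and adipocytes use it for adipokines and extracellular lipases.

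The 63 genes were 8 of targeting (SRP and its receptor), 8 of the translocon, 5 of signal peptidase, 5 of oligosaccharyltransferase, 6 of lipid-linked oligosaccharide assembly, 6 of folding, 9 of COPII and SEC22, 7 of COPI and 9 cargo receptors. A gene was tested in a tissue when 5 or more of the 20 arrays there read its probe set above that array's 40th percentile. By that filter 60 genes were tested in backfat, 61 in liver and 59 in both. SEC22C and ALG14 were not tested in backfat, TMED3 was not tested in liver, and SPCS2, a signal peptidase subunit, was tested in neither, with intensities of 8.29 to 81.42 in backfat and 25.51 to 98.93 in liver.

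All arrays had been scaled to a common level: trimmed of the top and bottom 2%, their means were 499.82 to 499.89, and their medians ran from 127.3 to 191.2. Intensities are not counts, and precision is limited by how many arrays there were. All 11 hepatocyte markers on the array passed the filter in liver and 4 did in backfat; of 6 adipocyte markers, all passed in backfat and 2 in liver. In 1 backfat array, low RFI restricted replicate 5, the log2 mean of those 4 hepatocyte markers was 13.17 against 7.46 to 10.78 on the 19 others. The mean of the skeletal muscle markers (11 of 12 tested) ranged from 4.27 to 12.75 over the backfat arrays. Replicates 1 and 2 differed from replicates 3 to 5 in control signals: the log2 ratio of the 3' to the 5' actin control was 2.27 ± 0.553 (SD, n = 8) against 1.56 ± 0.163 (n = 12) in backfat and 2.25 ± 0.28 against 1.32 ± 0.194 in liver. Each of these sets holds all 4 groups of a tissue, and results within each set stand beside the pooled ones below.

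In backfat, caloric restriction lowered 12 and raised 5 of the 60 member genes tested (limma, Benjamini-Hochberg adjusted p below 0.05 over all probe sets). The genes that fell included 3 of the 4 signal peptidase genes tested, the oligosaccharyltransferase subunit DAD1 and 3 of the 8 targeting genes. The mannosyltransferase gene ALG9 rose 2.27-fold, the largest change of any member. These counts are 20% lower and 8.33% higher of the members. Among all 5542 named genes tested, 15.4% were called lower and 11.5% higher, so the share of members called lower was somewhat above that background and the share called higher somewhat below it. The median log2 change of the members was -0.09, against 0.02 over all named genes and 0.08 over all 15498 probe sets tested, of which 25.8% were called. In all, 41 of the 60 members were below 0.

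**Figure D1:**
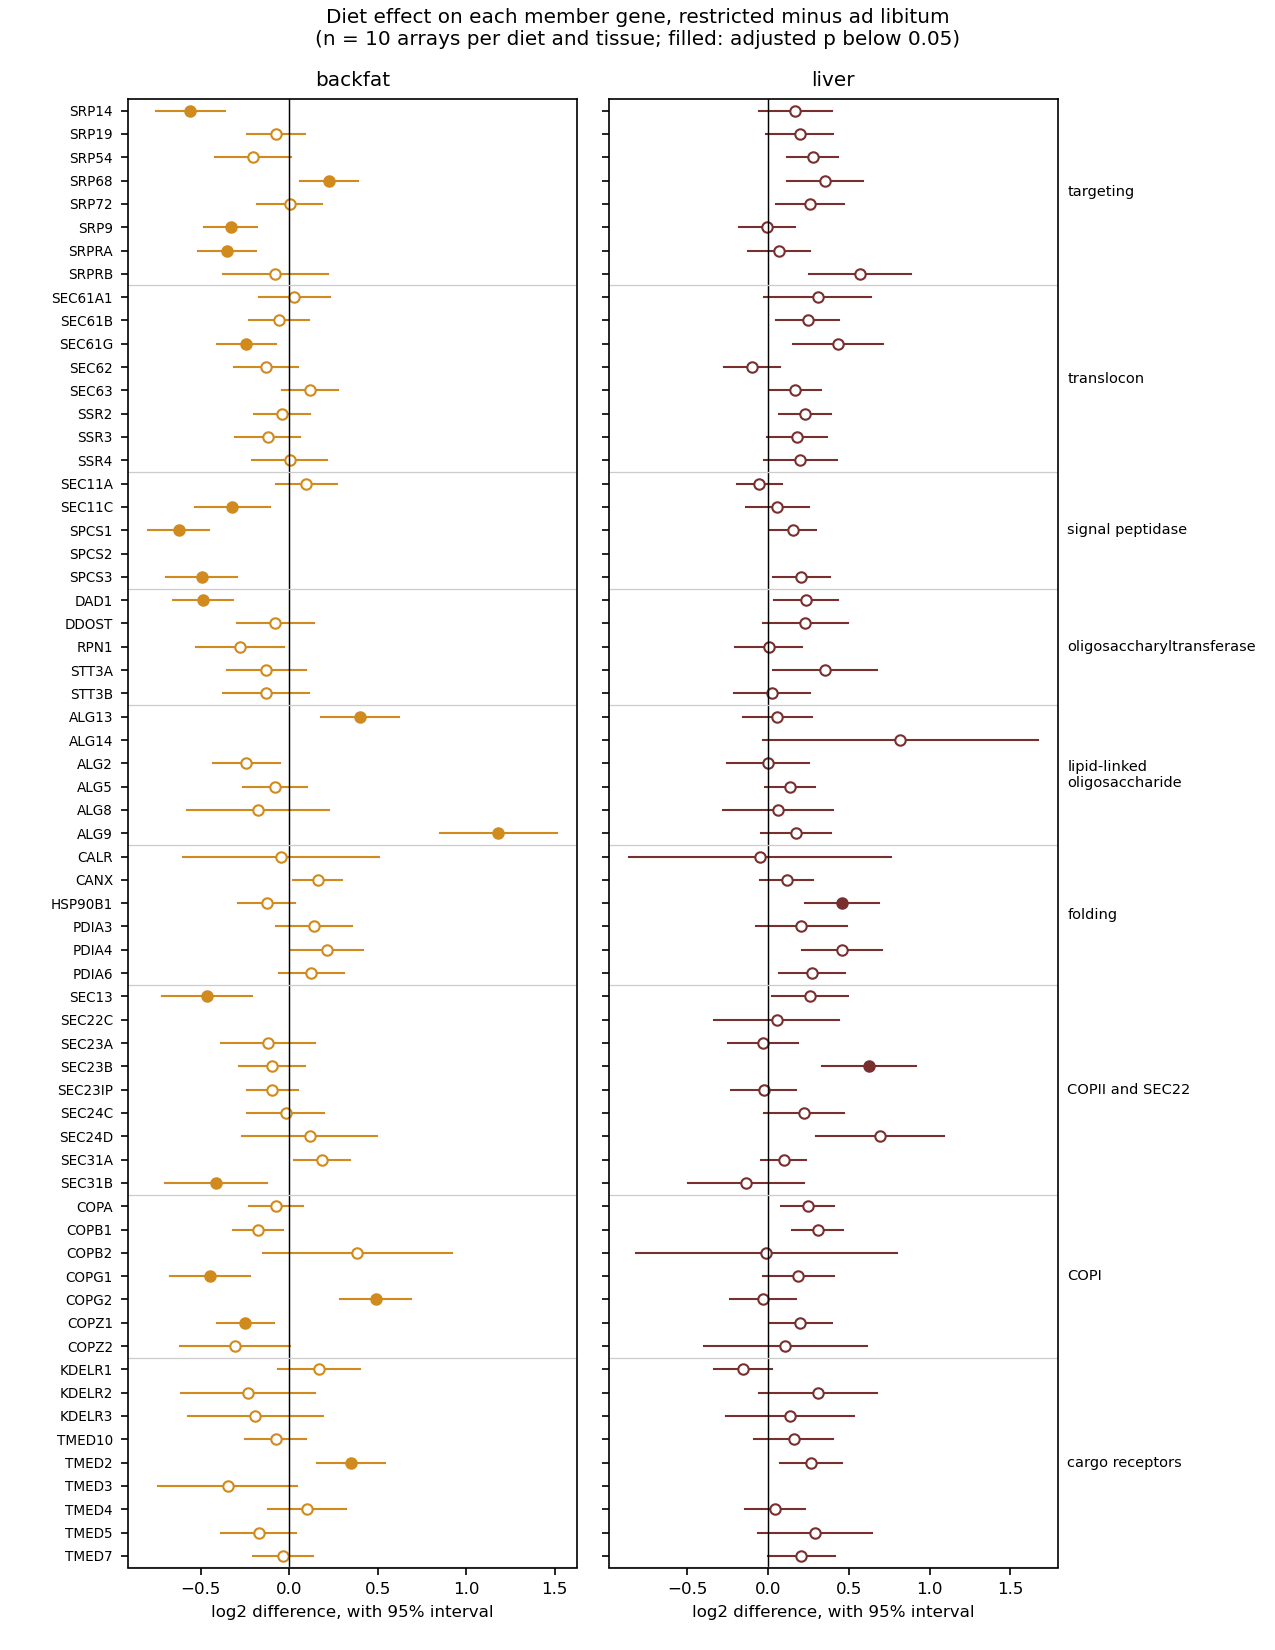
Log2 difference between restricted and ad libitum pigs for each member gene (x axis; dots, with 95% intervals as lines), ordered by role, in backfat and in liver, from 10 arrays per diet and tissue; filled dots passed an adjusted p of 0.05 and a missing dot marks a gene not tested. In backfat 17 dots are filled, 12 of them to the left of 0; in liver 2 are filled, and 50 of 61 dots lie to the right of 0.

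SPCS1, a non-catalytic subunit of the signal peptidase complex, had an intensity of 4764 to 6768 (median 5929) on the 10 ad libitum backfat arrays and 3065 to 4958 (median 3672) on the 10 restricted ones. The pooled ranges overlap at their ends, but within each line every restricted array lay below every ad libitum array. The log2 change was -0.63 (SE 0.083, adjusted p = 2.39e-05, limma), a 1.54-fold fall. Its partner SPCS3 fell by 0.50 on the log2 scale (SE 0.097, adjusted p = 0.000919), from a median intensity of 1709 to 1219.9. SEC11C, one of the 2 catalytic subunits, fell by 0.32 (adjusted p = 0.0249), whereas the other catalytic subunit, SEC11A, was at 0.10 and did not pass. SPCS1 has a second probe set that passed the filter in neither tissue (medians of 16.19 to 27.5 in the 4 tissue and diet groups), so its values rest on 1 probe set.

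DAD1, a small membrane subunit of oligosaccharyltransferase, ranged from 4258 to 6479.7 (median 5739.6) under ad libitum feeding and from 3372 to 4228 (median 3942) under restriction in backfat. Every restricted array lay below every ad libitum array. The log2 change was -0.49 (SE 0.081, adjusted p = 0.000224, limma). The other oligosaccharyltransferase genes, DDOST, RPN1, STT3A and STT3B, were all below 0, between -0.28 and -0.08, and none passed. The only other member with no overlap between the diets in backfat was SRPRA, the alpha subunit of the SRP receptor, at 2581 to 3360.5 against 1832 to 2566. That makes 2 of 60 members, against 2.2% of all named genes tested.

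Of the targeting genes, SRP14 and SRP9, which pair in the part of SRP that pauses translation, both fell. SRP14 went from a median intensity of 2951 (1877 to 3383) to 1784 (1586 to 2156), a log2 change of -0.56 (SE 0.095, adjusted p = 0.000261, limma). SRP9 changed by -0.33 (adjusted p = 0.00209) and SRPRA by -0.35 (adjusted p = 0.00256). SRP68, a protein of the other SRP domain, rose by 0.22 (adjusted p = 0.0402), while SRP19, SRP54, SRP72 and SRPRB did not pass. In the translocon, 1 of 8 genes passed: SEC61G, the gamma subunit of the channel, changed by -0.24 (adjusted p = 0.0322, limma). SRP19 and the translocon gene SEC63 were called only on a dimmer probe set. Of 33 alternatives, SRP68 lost its call in 17 and SEC61G in 12.

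ALG9, which adds mannose to the growing lipid-linked glycan inside the ER, had an intensity of 288.6 to 676.9 (median 385.5) on ad libitum and 657.7 to 1334 (median 981.6) on restricted backfat arrays. All restricted arrays lay above the ad libitum ones except 1, which was just under the highest ad libitum array. The log2 change was 1.18 (SE 0.159, adjusted p = 2.63e-05, limma). ALG13, part of the enzyme that adds the second sugar of the same glycan, rose by 0.40 (adjusted p = 0.00918). ALG2, ALG5 and ALG8 were between -0.24 and -0.08 on their brightest probe sets and did not pass there. ALG2 and ALG5 were each called on a dimmer probe set, so the reading of this step depends on the probe set used.

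None of the 6 folding genes passed in backfat on its brightest probe set, though CANX was called on a dimmer one. Their values ran from -0.13 for HSP90B1, an HSP90 chaperone of the ER lumen, to 0.21 for PDIA4, a protein disulfide isomerase, and their median was 0.13. The coat genes moved both ways. SEC13 and SEC31B, parts of the outer COPII coat, changed by -0.46 (adjusted p = 0.00849) and -0.41 (adjusted p = 0.0311), and SEC31B lost its call in 10 of the 33 alternatives. In COPI, the gamma subunit COPG1 changed by -0.45 (SE 0.109, adjusted p = 0.00482, limma). Its paralogue COPG2 changed by 0.49 (SE 0.096, adjusted p = 0.000941, limma), so the gamma subunits moved in opposite directions. With 3' to 5' control ratios as covariates, COPG1 lost its call (-0.31, adjusted p = 0.126, limma) and COPG2 kept it (0.37, adjusted p = 0.0363, limma). COPG1 had medians of 1358 under ad libitum feeding and 1075 under restriction, and COPG2 had 758.6 and 1085. COPZ1, the zeta subunit, changed by -0.25 (adjusted p = 0.0214). Among 9 cargo receptors, TMED2 alone passed, at 0.35 (adjusted p = 0.00791, limma), with medians of 5891 and 7347. The lowest was TMED3, at -0.35 (adjusted p = 0.183, limma). COPB1 and the cargo receptor TMED5 were called only on a dimmer probe set.

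Genes with several probe sets were also read from each of them in backfat. Over all 95 member probe sets tested, 11 were called higher and 16 lower, and no gene had probe sets called in opposite directions. Of all 15498 probe sets tested, 2344 were called higher and 1655 lower. A further 7 genes were called by a dimmer probe set only: SRP19, CANX, ALG5, SEC63, TMED5, COPB1 and ALG2. With a gene counted when any of its probe sets was called, 9 genes were higher and 15 lower, against 5 and 12 above.

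Of other genes of the same pathway, listed with earlier results of these data known, 2 of 55 tested in backfat were higher and 13 lower, with a median of -0.16. Those with the smallest p were BCAP31, an ER membrane chaperone (log2 change -0.47), LMAN2, a cargo lectin (-0.49), MAGT1, an oligosaccharyltransferase subunit (-0.37), DNAJB9, a co-chaperone (-0.55), SAR1B, the GTPase that starts the COPII coat (-0.39), ERP29 (-0.37), MPDU1, needed for mannose donors of the glycan (-0.79), and NUS1, of dolichol synthesis (-0.39). HSPA5, the main HSP70 chaperone of the ER, fell by 0.37 on the log2 scale (adjusted p = 0.0086, limma), from a median intensity of 6503 to 5239.8. It lost this call in 3 of 33 alternatives: quantile normalization, 3' to 5' control ratios as covariates, and arrays numbered 1 and 2 alone. With those ratios DNAJB9, ERP29, MPDU1 and NUS1 also lost their calls, while BCAP31, LMAN2, MAGT1 and SAR1B kept theirs. XBP1, a transcription factor of the unfolded protein response, rose by 0.27 (adjusted p = 0.0138), from 3943 to 4579.7.

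The count in backfat depended on the arrays used. Arrays numbered 1 and 2 alone gave 2 members called (SPCS1 and SPCS3, both lower) and a median of -0.05, and arrays numbered 3 to 5 gave 16 and -0.10. The calls over all probe sets also fell, to 469 and 2908, from 3999 with all arrays. The log2 ratio of a 3' to a 5' GAPDH control was 1.88 ± 0.521 (SD, n = 10) on restricted and 1.19 ± 0.365 (n = 10) on ad libitum backfat arrays (exact permutation test, two-sided, p = 0.00441, adjusted p = 0.0882 over 40 tests), while that of a second GAPDH control differed by -0.03 (p = 0.858, exact permutation test). With the first GAPDH ratio and the 3' to 5' actin ratio as covariates, 8 members passed, 3 higher and 5 lower. The members that lost their calls were SRPRA, COPG1, SEC13, ALG13, COPZ1, SEC11C, SEC31B, SEC61G and SRP68. Over all probe sets tested, 1840 passed in that fit. The median of the members was then -0.04, 26 of 60 were above 0, and SEC13 was at -0.22. The mean of the 4 fibroblast markers, all tested, was lower in restricted backfat, at 11.2 to 12.4 against 11.8 to 12.4 (difference -0.42, exact permutation p = 0.00665, adjusted p = 0.0887); its part in the members' change was not tested. Without the backfat array with the high hepatocyte markers, 15 members passed.

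In liver, most members were slightly higher under restriction and few differences passed the threshold. The COPII gene SEC23B and the chaperone gene HSP90B1 were called higher, and none of the 61 tested was called lower. That is 3.28% higher, against 0.647% higher and 0.56% lower among the 5716 named genes tested. In all, 50 of 61 members were above 0, and their median log2 change was 0.19, against 0.02 over all named genes and 0.02 over all 15677 probe sets. At an unadjusted p below 0.05 there were 23 of 61 members, all of them higher, against 1941 of all 15677 probe sets in either direction.

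SEC23B, which with SEC24 proteins forms the inner COPII coat, ranged from 628.8 to 1270.1 (median 802.4) on ad libitum and from 893.9 to 2269 (median 1302) on restricted liver arrays. The ranges overlap, but the restricted median lies above the highest ad libitum array. The log2 change was 0.62 (SE 0.141, adjusted p = 0.0355, limma), which is 1.54-fold. HSP90B1 ranged from 6847 to 12709 (median 8798) and from 9611 to 15559.8 (median 11910.4), and here too the ranges overlap. Its change was 0.46 (SE 0.110, adjusted p = 0.0478), and its second probe set was also called, at 0.57 (adjusted p = 0.0255).

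Next in order of p came COPB1, the beta subunit of coatomer, PDIA4 and SRPRB, the beta subunit of the SRP receptor, none of which passed. COPB1 ranged from 2455 to 3423 (median 2982) on ad libitum and from 3119 to 4288 (median 3673) on restricted arrays, a log2 change of 0.31 (SE 0.076, adjusted p = 0.0584). PDIA4 was at 0.46 (adjusted p = 0.0772) and SRPRB at 0.57 (adjusted p = 0.0851). SRP54, the SRP protein that binds the signal sequence, was at 0.28 (adjusted p = 0.0926) and was the single member whose 10 restricted liver arrays (1939 to 2721) all lay above its 10 ad libitum arrays (1542 to 1936). That is 1 of 61 members, against 0.0525% of the named genes tested.

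By role, the share above 0 in liver was 7 of 8 for targeting, 7 of 8 for the translocon, 5 of 5 for oligosaccharyltransferase, 5 of 6 for folding and 7 of 8 for cargo receptors. It was 3 of 4 for signal peptidase, 5 of 6 for lipid-linked oligosaccharide assembly, 6 of 9 for COPII and SEC22 and 5 of 7 for COPI. The medians of the roles lay between 0.10 and 0.24. The lowest member was KDELR1, a KDEL receptor, at -0.16, and ALG14, the partner of ALG13, had the highest value, 0.82, with an interval from -0.03 to 1.67.

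Among all named genes tested in liver, 0.647% were called higher and 0.56% lower. Of the other pathway genes, which were listed with earlier results of these data known, 7 of 56 tested in liver were higher and 1 lower, with a median of 0.13. The higher ones were GMPPB and PGM3, enzymes of the nucleotide sugars used for glycans (log2 changes of 1.67 and 1.04), the ER proteins SDF2L1 (0.99), MANF (0.91) and LRRC59 (0.80), XBP1 (0.45, adjusted p = 0.034) and HSPA5 (0.50, adjusted p = 0.0453, limma). HSPA5 had an intensity of 8839 to 18210.1 (median 12544) on ad libitum and 14325 to 23130.3 (median 16579.8) on restricted liver arrays. The lower one was TRAM2, a relative of a translocon protein (-0.51). Of 31 alternatives, HSPA5 lost its call in 22, and XBP1 and TRAM2 in 11 each.

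Both liver calls lay close to the threshold. No member passed in 11 of the 20 fits that left out 1 array: low RFI ad libitum replicates 1, 3, 4 and 5, low RFI restricted replicate 2, high RFI ad libitum replicates 1, 4 and 5, and high RFI restricted replicates 1, 4 and 5. Without low RFI restricted replicates 1, 3 or 5, or high RFI ad libitum replicate 2, 1 member passed, and without low RFI restricted replicate 4, 6 did. The median stayed between 0.15 and 0.21 over these fits. Within the arrays numbered 1 and 2 it was 0.16, and within those numbered 3 to 5 it was 0.19, with no member called in either. Over all probe sets, 0 and 44 were called in these sets, against 144 with all arrays. The fibroblast marker mean was also lower in restricted liver, at 7.62 to 8.57 against 7.99 to 9.11 (4 of 4 markers tested, difference -0.48, exact permutation p = 0.00176, adjusted p = 0.0704); its part was not tested.

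**Figure D2:**
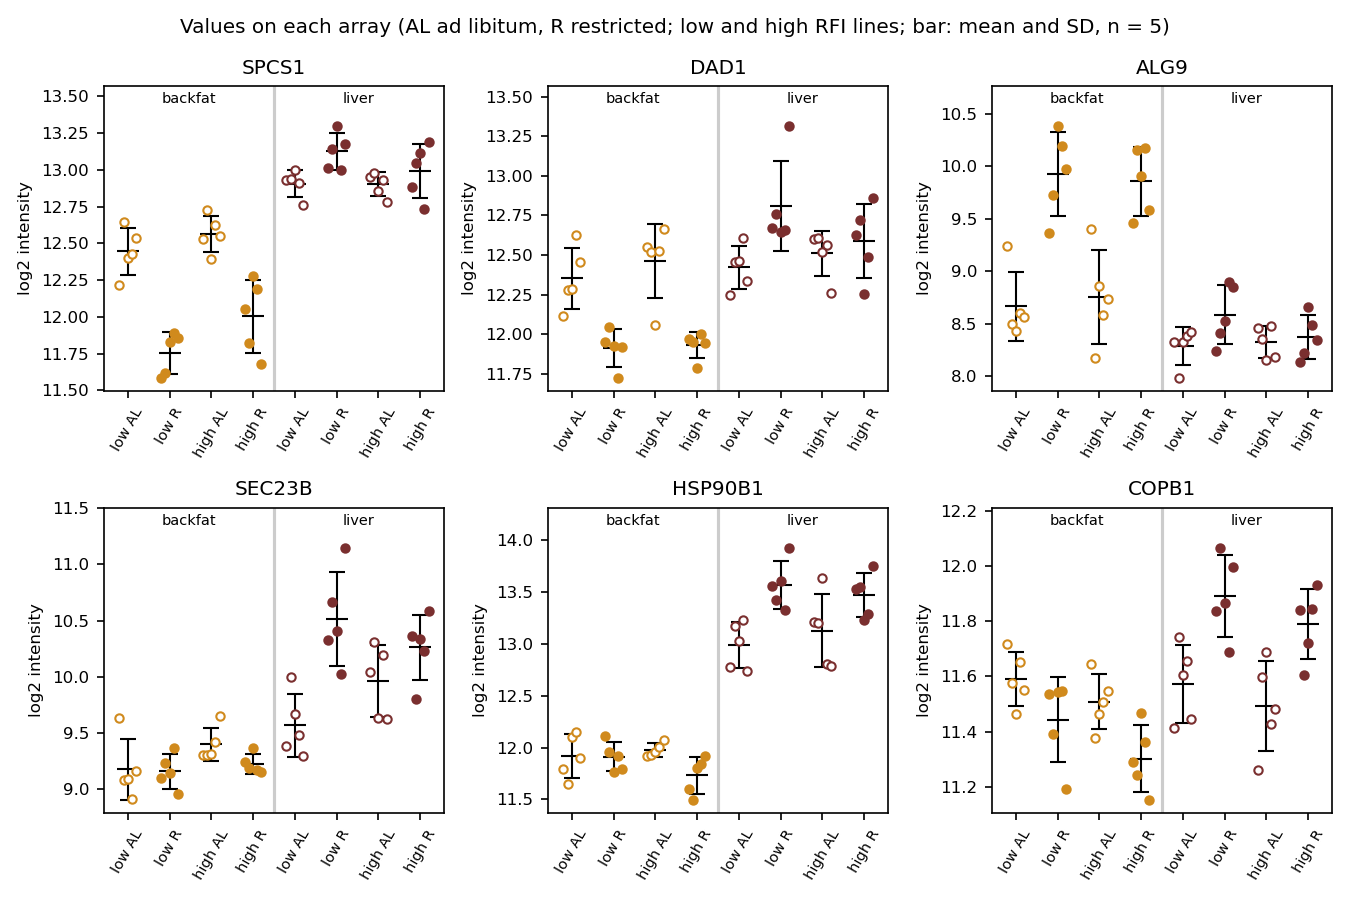
Log2 intensity (y axis) of 6 members on every array, by tissue, line (low or high RFI) and diet (AL ad libitum, open; R restricted, filled), with the mean and SD of each group of 5. SPCS1 and DAD1 sit lower and ALG9 higher on restricted backfat arrays, and SEC23B, HSP90B1 and COPB1 sit higher on restricted liver arrays.

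The diet response differed between the tissues for 18 of the 59 members tested in both. It was more positive in liver for 16 of them (27.1%, against 10.5% of the 5279 named genes tested) and more positive in backfat for 2 (3.39%, against 3.85%). The median difference, liver minus backfat, was 0.27, against 0.01 over all named genes and -0.05 over all probe sets. In all, 33 of 59 members (55.9%) were below 0 in backfat and above 0 in liver, a pattern held by 24.6% of all named genes.

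Genes of cleavage, glycan transfer and targeting were among those called. SPCS1 was at -0.63 in backfat and 0.15 in liver, a difference of 0.78 (SE 0.103, adjusted p = 4.18e-06, limma over 40 arrays). DAD1 was at -0.49 and 0.23 (difference 0.72, adjusted p = 0.000128), SPCS3 at -0.50 and 0.21 (difference 0.70, adjusted p = 0.000261) and SRP14 at -0.56 and 0.17 (difference 0.73, adjusted p = 0.00067). In liver DAD1 ranged from 4871 to 6241 on ad libitum and from 4890.0 to 10183 on restricted arrays, so the liver ranges overlapped where the backfat ranges did not. The other targeting genes called were SRP54 (0.48), SRPRA (0.42), SRP9 (0.33) and SRPRB (0.65), which makes 5 of 8.

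Coat genes made up another group: SEC13 (0.72), SEC23B (0.72), COPG1 (0.63), COPB1 (0.48), COPZ1 (0.45) and COPA (0.32), the alpha subunit of coatomer, all differed in the same direction. SEC61G (0.67) was the only translocon gene called and HSP90B1 (0.59) the only folding gene. The members that went the other way were ALG9, at 1.18 in backfat and 0.17 in liver (difference -1.01, SE 0.192, adjusted p = 0.000472), and COPG2, at 0.49 and -0.03 (difference -0.52, adjusted p = 0.00863). No cargo receptor was called. Of the other pathway genes, listed with earlier results of these data known, 18 of 54 were called more positive in liver and 1 more positive in backfat. With arrays numbered 1 and 2 alone, 3 members passed, and with those numbered 3 to 5 alone, 13 did, with medians of 0.26 in each. Over all probe sets, 254 and 708 were called in these sets, against 1524 with all arrays. SRPRB lost its call in 26 of the 40 fits that left out 1 array, and SRP9 and COPA in 10 each. Averaging the probe sets of a gene, dim ones included, turned the difference for SPCS1 to -0.21 (adjusted p = 0.814).

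The leading backfat genes responded in both lines. The median over the members was -0.05 in low and -0.13 in high RFI pigs. The effect was more positive in low RFI pigs for 42 of 60, with a median difference of 0.06, against -0.01 over all probe sets. That lean was not seen in both array sets. It was 39 of 60 with a median of 0.11 in arrays numbered 1 and 2, and 28 of 60 with a median of -0.01 in those numbered 3 to 5. In low RFI pigs 1 member was called higher (1.67%, against 3.32% of named genes) and 5 lower (8.33%, against 7.42%), and in high RFI pigs 2 were higher (3.33%, against 3.74%) and 6 lower (10%, against 7.24%). SPCS1, DAD1, SPCS3 and SRP14 were called lower in both lines and ALG9 was called higher in both. SPCS1 fell by 0.69 in low RFI and by 0.56 in high RFI pigs, and ALG9 rose by 1.26 and 1.11. In low RFI pigs SRP9 was also lower, and in high RFI pigs COPG1 and SRPRA were lower and COPG2 was higher. The diet effect had the same sign in both lines for 52 of 60 members, 16 up and 36 down, which is 26.7% and 60% against 41.9% and 38% of all named genes.

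In liver, 54 of 61 members were above 0 in low RFI pigs (median 0.28) and 47 in high RFI pigs (median 0.10). No member passed in either line, against 0.21% and 0.0175% of named genes called in low and high RFI pigs. Unadjusted, 26 and 5 of 61 members were below 0.05, against 1577 and 1065 of all 15677 probe sets. SEC23B was nearest to the threshold, at 0.95 in low RFI pigs (adjusted p = 0.0573, limma) and 0.30 in high RFI pigs (adjusted p = 0.822). The sign was shared by the lines for 45 members above 0 (73.8%, against 34.3%) and 5 below 0 (8.2%, against 27.7%).

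**Figure D3:**
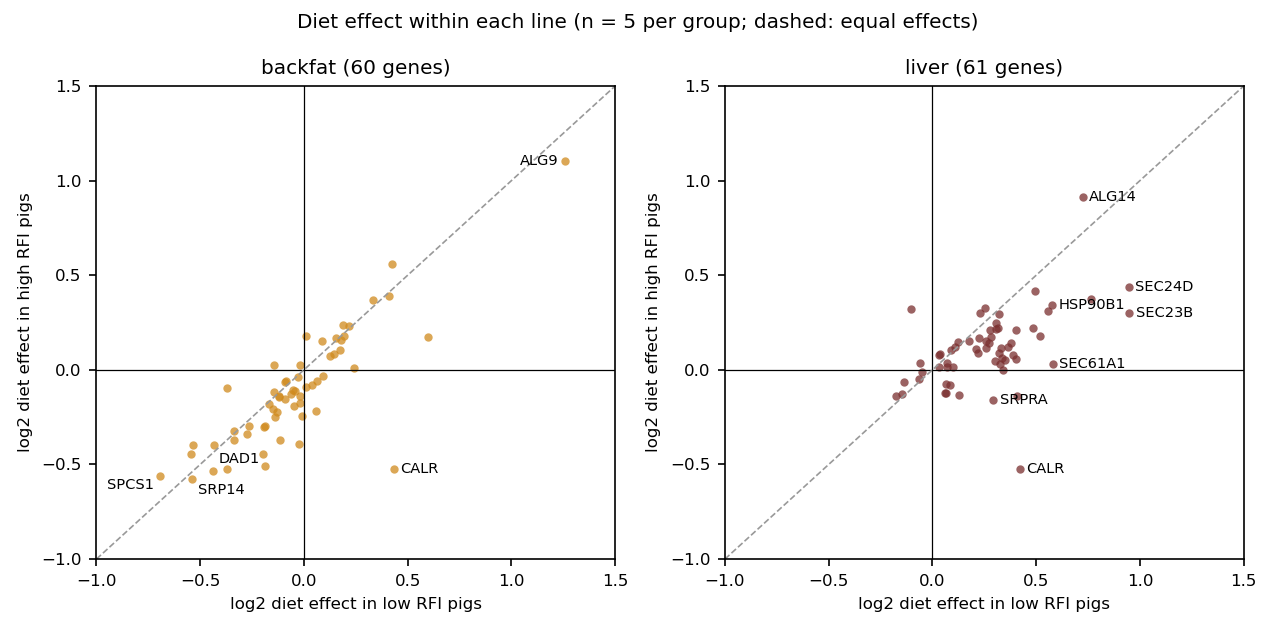
Log2 diet effect in low RFI pigs (x axis) against that in high RFI pigs (y axis) for each member, in backfat and liver, with 5 arrays per group; the dashed line marks equal effects. ALG9, SPCS1, DAD1 and SRP14 lie near the line in backfat; in liver most points lie to the right of 0 and CALR lies off the line in both tissues.

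The difference between the lines in the response to diet was tested directly, and no member passed in either tissue. The interaction had an adjusted p of 1 for every member in backfat, with no member at an unadjusted p below 0.05. In liver the lowest adjusted p was 0.999, and 2 members were below 0.05 unadjusted. Over all probe sets none was called (limma), and 244 in backfat and 525 in liver were below 0.05 unadjusted. In liver 46 of 61 members responded more positively in low RFI pigs, with a median difference of 0.13, against -0.02 over all probe sets. It was 53 of 61 (median 0.20) in arrays numbered 1 and 2 and 38 of 61 (median 0.09) in those numbered 3 to 5. The smallest p belonged to SRPRA, with liver intensities of 3554, 4324, 4196, 4679.8 and 3668 in low RFI ad libitum pigs and 4128, 4828, 4872, 4448 and 7082 in low RFI restricted ones. In high RFI pigs they were 5746, 5183, 5093, 5761 and 4120.0 ad libitum and 4861, 4583, 4436, 4391 and 4796 restricted. The groups overlap, and the highest value, 7082, is replicate 5 of the low RFI restricted group. The interaction for SRPRA was 0.45 (interval 0.07 to 0.84, adjusted p = 0.999, limma).

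SEC23B followed in liver. Its values were 668.1, 1025, 812.3, 714.2 and 628.8 in low RFI ad libitum and 1285, 1624, 1359, 1042 and 2269 in low RFI restricted pigs, with no overlap. In high RFI pigs they were 1056, 1270.2, 792.5, 1172 and 790.7 against 1312, 893.9, 1291, 1196 and 1533, which overlap. The interaction was 0.65 (interval 0.06 to 1.24, adjusted p = 0.999, limma). In backfat the smallest p for the interaction were those of CALR and SRP54. SRP54 was at 853.8 to 1304 and 819.2 to 1187 in low RFI pigs (ad libitum, then restricted) and at 1005 to 1379 and 676.0 to 1028 in high RFI pigs, and its interaction was 0.37 (interval -0.06 to 0.80).

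**Figure D4:**
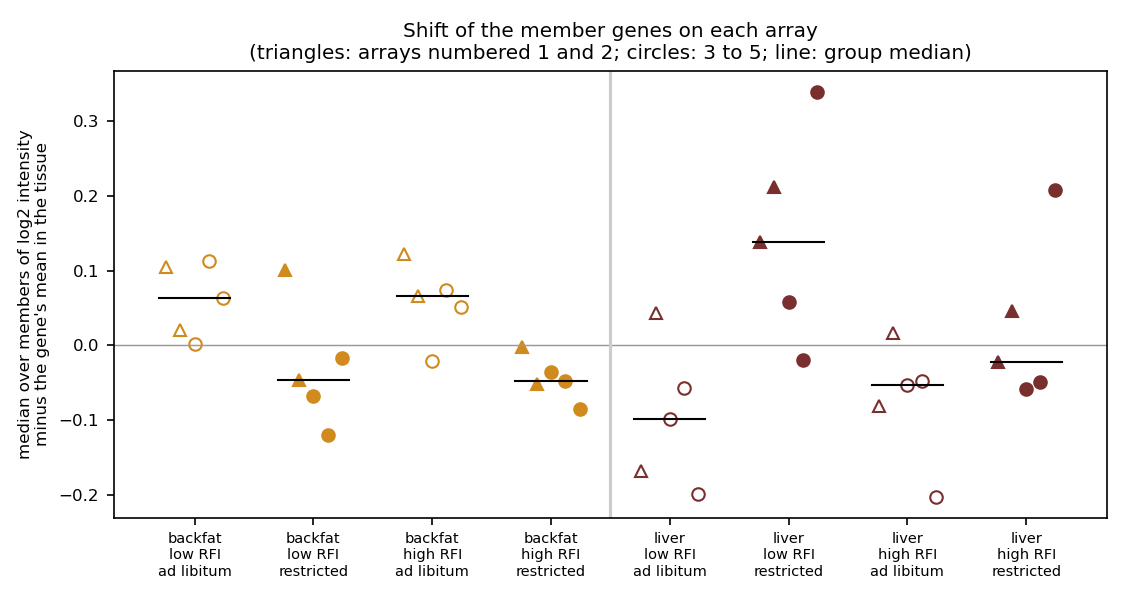
Median over the members tested of the log2 intensity minus the gene's own mean in the tissue (y axis), for each array by group (x axis); triangles are arrays numbered 1 and 2, circles those numbered 3 to 5, and lines group medians. Restricted backfat groups centre near -0.05 and ad libitum ones near 0.06, and the highest liver value, 0.34, is an array of low RFI restricted pigs.

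Taken per array, the median shift of the members from their own tissue means was -0.02 to 0.12 on ad libitum and -0.12 to 0.10 on restricted backfat arrays. In liver it was -0.20 to 0.04 on ad libitum and -0.06 to 0.34 on restricted arrays. The diets overlapped in both tissues. The liver group with the highest shift was low RFI restricted, with a mean of 0.15 ± 0.139 (SD, n = 5), and high RFI restricted liver was at 0.02 ± 0.110.

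No member passed the threshold for a difference between the lines in backfat (0.018% of named genes called) or in liver (0.0525%). At an unadjusted p below 0.05 there were 6 of 60 members in backfat and 2 of 61 in liver. Of all probe sets, 1205 of 15498 in backfat and 1024 of 15677 in liver were below it. In both tissues the smallest p belonged to CALR, the gene of the calcium-binding lectin chaperone calreticulin, which was lower in low RFI pigs. In backfat its intensity was 332.8 to 986.5 (median 414.5) on the 10 low RFI arrays and 362.5 to 1749 (median 1007) on the 10 high RFI arrays, a log2 difference of -1.03 (SE 0.266, interval -1.58 to -0.47, adjusted p = 0.224, limma). In liver it was 365.7 to 2156 (median 730.2) against 486.8 to 4603 (median 2493), a difference of -1.50 (SE 0.391, interval -2.31 to -0.68, adjusted p = 0.307). The high RFI values spread widely and the ranges overlap. The skeletal muscle marker mean in backfat was 4.27 to 12.75 in low and 4.41 to 10.92 in high RFI pigs; with it as a covariate, no member was called for line.

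By array in order of replicate number, CALR in liver was 740.2, 2392, 2422, 4603 and 4289 in high RFI ad libitum and 814.9, 2996, 4542, 486.8 and 2563 in high RFI restricted pigs. In backfat these groups had 1045, 419.2, 1088, 1749 and 1588, and 831.0, 451.2, 1623, 362.5 and 969.7. Low RFI liver values were 844.0, 829.9, 527.2, 479.1 and 522.1 ad libitum and 949.5, 710.4, 2156, 750.0 and 365.7 restricted. Low RFI backfat values were 433.5, 346.7, 332.8, 427.5 and 334.9, and 390.1, 450.3, 986.5, 465.3 and 401.5. A single probe set measured CALR, and its SD within a group on the log2 scale ran from 0.19 to 1.36, against 0.08 to 0.25 for SPCS1. The interaction for CALR in backfat was 0.96 (interval -0.15 to 2.07, adjusted p = 1, limma). SEC24D, a COPII cargo adaptor, was next for line in backfat, at 372.0 to 1532 (median 537.3) in low and 359.0 to 491.5 (median 413.5) in high RFI pigs (0.48, adjusted p = 0.497). SEC11C was next in liver, at 4333 to 7669 (median 5867) and 4417 to 5762 (median 4939.9), a difference of 0.20 (adjusted p = 0.761).

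Between the tissues, the members were higher in liver for 40 and lower for 11 of the 62 genes tested in either tissue, that is 64.5% and 17.7%, against 35.3% and 45.9% of the 5979 named genes. The filter itself favours a difference for a gene that passed it in 1 tissue only. Of such genes, ALG14 is counted among the 40 and TMED3 among the 11, while SEC22C was not called (-0.20, adjusted p = 0.112, limma). The 59 members tested in both tissues, a set chosen after seeing the data, are therefore the firmer count. Of these, 39 were higher (66.1%) and 10 lower (16.9%) in liver, against 32.8% and 47.1% of 5279 named genes. All 6 folding genes, all 4 signal peptidase genes tested and 7 of 8 translocon genes were higher in liver, while COPI had 2 higher and 3 lower. The median of the members was 0.40 against -0.25 over all probe sets, so it lay 0.65 above that median. Quantile normalization moved the median of all probe sets to -0.08 and left 33 members higher and 15 lower. Of the members called as deposited, CANX, SSR2, SSR4 and TMED10 changed sign, as did COPA, SEC13, SEC22C, STT3B and TMED5, which had not been called; the members' median was then 0.38 above that of all probe sets.

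PDIA4 had an intensity of 876.3 to 1795 (median 1226) on the 20 backfat arrays and 4247 to 10069 (median 6613) on the 20 liver arrays, with no overlap. The difference was 2.46 (adjusted p = 1.28e-26, limma). SEC11C had 1049 to 1961 (median 1338) in backfat and 4333 to 7669 (median 5229) in liver, again with no overlap, a difference of 1.94. PDIA6 (1.81), PDIA3 (1.60), SPCS3 (1.46), HSP90B1 (1.41) and TMED7 (1.40) followed. ALG14 was too dim to be tested in backfat, at 6.241 to 112.3 (median 19.55) against 19.86 to 375.6 (median 174.5) in liver; its ranges overlap, and its difference is not ranked with the others.

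In the other direction stood TMED3, a cargo receptor of the p24 family, at 195.6 to 882.4 (median 360.3) in backfat and 10.75 to 72.51 (median 51.32) in liver, where it did not pass the filter. SEC31B had 209.3 to 523.3 (median 335.9) in backfat and 82.6 to 172.6 (median 127.2) in liver, a difference of -1.38. Both genes had every liver array below every backfat array. COPZ2, the second zeta subunit of coatomer, had 1889 to 5112 (median 2433) against 306.4 to 1763 (median 1274), also without overlap (-1.10). Over all members, every liver array lay above every backfat array for 16 of 62 genes, against 12.0% of named genes, and below for 3, TMED3 among them, against 13.2%.

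**Figure D5:**
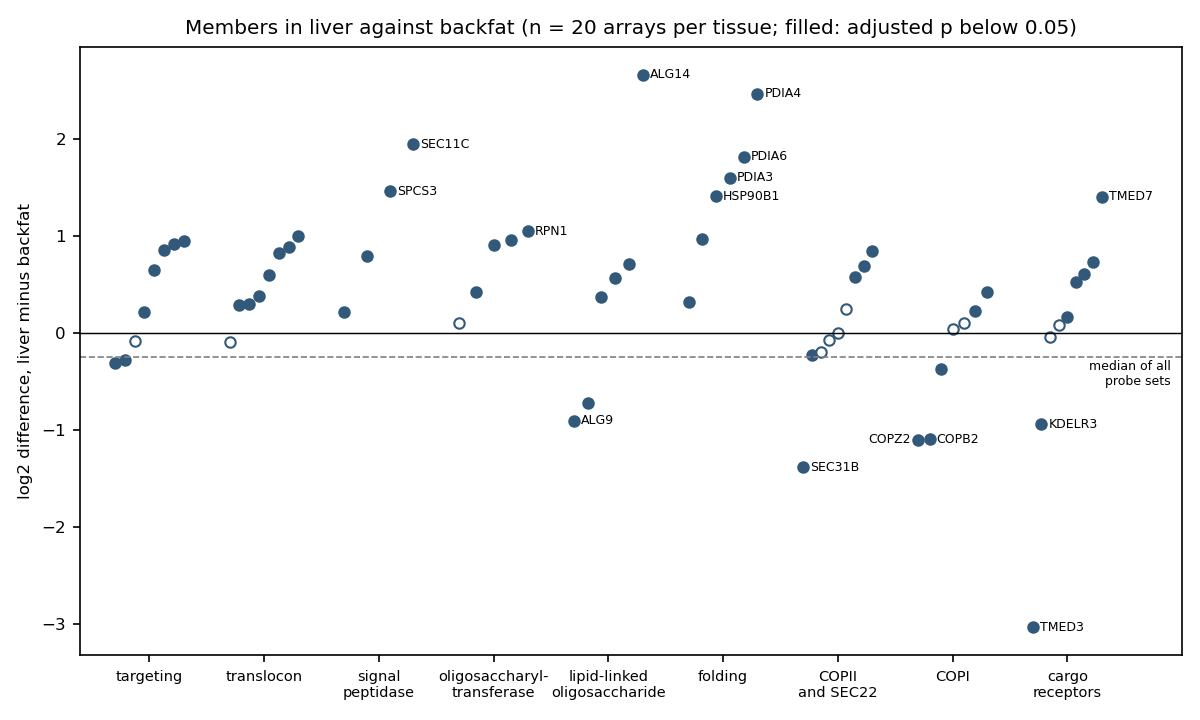
Log2 difference between liver and backfat (y axis) for each member, grouped by role (x axis), from 20 arrays per tissue; filled dots passed an adjusted p of 0.05 and the dashed line is the median of all probe sets, -0.25. ALG14, SEC22C and TMED3 passed the filter in 1 tissue only. Folding, signal peptidase and oligosaccharyltransferase genes lie above 0, while COPI genes lie on both sides.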

How the data were processed

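RNA from the liver and the backfat of 20 pigs was hybridised to 40 arrays. The deposited table holds 1 intensity per probe set and array on a linear scale, and the submitters' processing notes name affy and MAS5 without giving their versions; the genome build is not given in the sources used here. After 124 control probe sets were left out, 23999 remained, of which 10069 carried 1 gene symbol in the platform annotation, 198 several and 13732 none; genes were named only from the first kind. All 63 members matched RefSeq symbols (assembly Sscrofa11.1) by Entrez number.

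Each tissue was fitted on log2 intensity of its 20 arrays, with the mean of each line and diet group as a term, in limma 3.58.1 (R 4.3.3) with an intensity trend in eBayes. P-values were Benjamini-Hochberg adjusted over all probe sets tested (15498 in backfat, 15677 in liver, 14001 for the difference of the diet effect, 17174 between tissues), with a threshold of 0.05. In the fits over both tissues all 40 arrays were taken as independent, although they came from 20 pigs. A gene was called when the probe set that stands for it passed. Control ratios and marker means were compared by exact permutation of the arrays (63504 distinct arrangements), in Python 3.11.15 with scipy 1.17.1. The fit of the diet effect in each tissue was tested on simulated data with independent noise on each array, which leaves out variation shared between arrays. The labels describe pigs, and no array repeated the values of another.

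The members and the lists of other pathway genes and markers were chosen with earlier results of these data known. For each comparison a list held the members past the threshold (at most 25 with the smallest p). Where fewer than 5 passed, it held those and the 5 members with the smallest p. For diet it also held other pathway genes past the threshold, at most 8 per tissue, with HSPA5 and XBP1 always. The text names genes from these lists, but not all of them. It also names members at the ends of a role or chosen for contrast, which were picked after their values were seen. Replicate numbers were not used to pair arrays in the main fits. The labels give them no meaning, and not every same-numbered pair correlated above 0.1. Alternatives covered the normalization, the filter, an offset before log2, the trend, the probe set for a gene, the replicate block, the array sets, control ratios, muscle markers and each array left out, and, added after seeing the data, a fit between tissues on probe sets tested in both. No sequences are shown.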

Additional observations from a re-analysis of the deposited data

Results flagged for a closer look

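The 45 members listed for at least 1 comparison were searched group by group, in up to 8 groups of 5 arrays. The search looked for a single array far from the other 4 (a gap over 0.71 of the group's range). There were 34 such cases among 356 gene and group combinations, or 9.55%, and the same array could appear for several genes. Independent, normally spread values would give about 1 in 20. Genes read on the same array need not be independent, so no excess over chance is claimed. The arrays that appeared most were high RFI ad libitum backfat replicate 3 and high RFI ad libitum liver replicate 5, with 4 genes each, and low RFI restricted liver replicate 5, with 3.

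In backfat, high RFI ad libitum replicate 3 was low for DAD1 (4258, others 5859 to 6479.7), DDOST (2084, others 2695 to 2945), SEC61A1 (1266, others 1853 to 1955) and SRP14 (2197, others 3009 to 3383). Low RFI ad libitum backfat arrays stood out for ALG9 (replicate 1 at 607.1, others 345.7 to 388.0), KDELR3 (replicate 1 at 2740.2), COPG2 (replicate 5 at 976.3) and TMED3 (replicate 2, low at 298.0). Among low RFI restricted backfat arrays, replicate 2 was low for DDOST (1526, others 2768 to 2891) and high for PDIA4 (1795), replicate 4 was low for COPZ1 (965.2) and SEC61B (2025), replicate 1 was high for TMED7 (1995) and replicate 3 was high for CALR (986.5, others 390.1 to 465.3). High RFI restricted replicate 3 was low for SRP54 (676.0).

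In liver, low RFI restricted replicate 5 was high for DAD1 (10183, others 6408 to 6940.3), DDOST (10003, others 4297 to 5348) and COPZ1 (2091, others 1328 to 1472), and replicate 4 was low for RPN1 (3989.6). High RFI ad libitum replicate 5 was low for DAD1 (4901), COPZ1 (1005), SPCS3 (3033) and SRP54 (1542). In the same group replicate 2 was high for SEC24D (700.4) and SRP68 (1425), replicate 3 for PDIA3 (9735, others 5837 to 6577) and replicate 4 for SEC61A1 (3386). High RFI restricted replicate 3 was low for ALG5 (2314) and CANX (7120.4). Low RFI ad libitum liver arrays stood out for PDIA3 (replicate 1 at 5942), SEC13 (replicate 1 at 266.5), ALG9 (replicate 2 at 252.8), COPG2 (replicate 3 at 633.0), all low, and SRPRB (replicate 2, high at 1011, others 454.1 to 541.6).

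The diet effect differed between liver and backfat, by the test of the difference itself, for 18 members. Liver minus backfat on the log2 scale was 0.78 for SPCS1, 0.73 for SRP14, 0.72 for SEC13, SEC23B and DAD1, 0.70 for SPCS3, 0.67 for SEC61G, 0.65 for SRPRB, 0.63 for COPG1 and 0.59 for HSP90B1. It was 0.48 for COPB1 and SRP54, 0.45 for COPZ1, 0.42 for SRPRA, 0.33 for SRP9 and 0.32 for COPA, and it was -0.52 for COPG2 and -1.01 for ALG9.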

How the results depend on the processing

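The count of members called for diet in backfat was 13 (without low RFI ad libitum replicate 4) to 21 (without low RFI restricted replicate 1) with 1 array left out. It was 8 with the 3' to 5' ratios of the first GAPDH control and of actin as covariates, where 1840 of all probe sets were called. With arrays numbered 1 and 2 alone it was 2, and 469 of all probe sets were called. The median of the members stayed between -0.12 and -0.08 with 1 array left out. SPCS1 and SPCS3 kept their calls in all 33 alternatives run. These did not include averaging the probe sets of a gene, which was run only in the fits over both tissues. For diet in liver the count was 0 to 6 with 1 array left out, 1 under quantile normalization and with no filter, 0 without the intensity trend and within either set of array numbers, and 4 with the array set as a covariate; the median was 0.15 to 0.21. The difference between tissues gave 15 to 20 members with 1 array left out. It gave 3 with arrays numbered 1 and 2 alone, where 254 of all probe sets were called. Liver against backfat gave 50 to 52 with 1 array left out. Line and interaction gave 0 to 0 in each tissue in every fit with 1 array left out.

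With the replicate number as a block, members called were 20 in backfat and 6 in liver, 11 and 13 for diet in backfat of low and high RFI pigs, and 0 for line and interaction. In liver COPB1, PDIA4 and SRPRB then passed (adjusted p = 0.0402, 0.0461 and 0.0461, limma). The fits over both tissues were also run with arrays of the same line, diet and number as a correlated block. The difference of the diet effect then gave 21 members, 19 more positive in liver and 2 more positive in backfat. Over all probe sets 2296 were called for that difference, against 1524 without the block. Liver against backfat gave 51 members. After group means were removed, same-numbered arrays correlated above 0.1 in 23 of 30 pairs in backfat (median 0.202) and 26 of 30 in liver (median 0.183), and differently numbered ones in 23 of 120 (median -0.055) and 27 of 120 (median -0.076). Arrays sharing a number were thus more alike, and 12 of 20 backfat and 13 of 20 liver arrays were closest to their own number, but the labels do not say what a number marks.

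The interaction for HSP90B1 in backfat turned to -0.064 with arrays numbered 3 to 5 (adjusted p = 1, limma). Averaging the probe sets of a gene turned the tissue difference of the diet effect for SPCS1 to -0.21 and the level of ALG5 in liver against backfat to -1.05. For SPCS1 the second probe set was below the filter; the cause for the others was not tested. Dim probe sets limit SPCS2 in both tissues, SEC22C and ALG14 in backfat and TMED3 in liver, and 5 arrays per group limit the tests of the interaction.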

Other observations

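For CALR, the array with the highest intensity in a group carried the same replicate number in liver and in backfat in 4 of 4 groups, a pattern picked out after its values were seen. Of 59 genes tested in both tissues, SEC61A1 and SPCS3 also did so in 4 groups, 4 genes did in 3 groups, 8 in 2, 22 in 1 and 22 in none. Liver and backfat arrays of the same group and number correlated above 0.1 in 19 of 20 pairs over all probe sets tested in both (lowest 0.07), after the group means were removed. The labels do not say whether these arrays share a pig.

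In both tissues CALR was higher under restriction in low RFI pigs (log2 change 0.44 in backfat and 0.42 in liver) and lower in high RFI pigs (-0.53 and -0.52). None of these changes passed the threshold (lowest adjusted p = 0.418, limma), and the interaction was 0.96 in backfat and 0.94 in liver.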
